A study of Homo sapiens with 8 samples.

Results

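The genes described here are WNT5A, the matricellular gene CCN4 and a set of Wnt pathway and Wnt target genes, namely WNT11, AXIN2, LEF1, TCF7L2, NKD1, RNF43, ZNRF3 and SP5. They were found by gene name in a table of gene counts, and are 10 of its 78691 genes. Each name stood on a single row of the table. CCN4 was chosen for its lower count after MYCL knockdown in NCI-H660 cells, and WNT5A was among the genes that the study itself picked from these libraries, so those values are described without a test.

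Bulk RNA-seq was available for 8 libraries, with 2 replicates in each of 4 conditions. C4-2B, a castration-resistant prostate adenocarcinoma line, was transduced with lentivirus, either an empty one (control) or one that expresses human MYCL with EGFP from the EF1A promoter (MYCL). NCI-H660, a neuroendocrine prostate cancer line, expressed a non-targeting shRNA (shCtrl) or shRNA against MYCL (shMYCL). The series text names an adenoviral vector for the knockdown, for which the methods describe transient expression of several MYCL shRNAs behind a CMV promoter, while the sample labels speak of stable knockdown, so the vector form is not certain. Each line is a single line, and the vectors differ between the lines, so line and vector cannot be told apart when the control conditions are compared.

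Wnt ligands are secreted lipid-modified proteins that bind Frizzled receptors. In the canonical branch, ligand binding stops the destruction complex (AXIN, APC, GSK3) from marking beta-catenin for degradation, and beta-catenin then acts with TCF/LEF factors on target genes. AXIN2, NKD1, RNF43, ZNRF3, LEF1 and SP5 are widely used targets of this branch, and several of them feed back on it as inhibitors. WNT5A and WNT11 are best known for non-canonical signaling through ROR receptors and planar polarity proteins, and WNT5A has been studied in advanced prostate cancer.

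Library totals lay between 15177071 and 32344170 counts, and the mitochondrial share was 9.63% to 10.7% for C4-2B but 3.50% to 3.83% for NCI-H660. Replicate libraries differed by more than counting noise (chi-square per degree of freedom between 5.13 and 12.8), so all 8 were used as separate samples. MYCL itself was counted 371 and 320 times in C4-2B control, against 65524 and 70253 times after its expression. In NCI-H660 it was counted 1863 and 1602 times with shCtrl and 165 and 198 times with shMYCL, so both manipulations moved MYCL in the labelled direction. All 7 luminal prostate markers were at a TPM of at least 1 in C4-2B control libraries and all 7 neuroendocrine markers in NCI-H660 shCtrl libraries. The summed TPM of the luminal list was between 2270 and 2280 in C4-2B control, 1490 and 1630 in C4-2B MYCL, 1.35 and 1.58 in shCtrl and 2.06 and 2.28 in shMYCL libraries. That of the neuroendocrine list was between 0.869 and 1.09, 0.598 and 1.07, 1200 and 1360, and 975 and 1090 in the same order.

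Sequences around the annotated starts were looked up because TCF/LEF factors act on Wnt targets through short DNA letters, and MYC family proteins bind the E-box. RefSeq windows of 300 bases (build GRCh38.p14, 250 before to 50 after each start) were at hand for 5 of the 10 genes, as 9 windows in all for WNT5A, LEF1, TCF7L2, RNF43 and SP5. The TCF/LEF core was searched on both strands as CTTTG followed by AA, AT, TA or TT, and was present in 2 of these windows, and in 13.8% of all 35116 RefSeq windows. Both windows are given here with these letters in capitals, since they are the ones that hold the core, and a match on the minus strand reads as its reverse complement. SP5, a zinc-finger transcription factor and direct Wnt target, had 3 matches that began 148, 109 and 84 bases before its start, at chr2:170715087-170715386 on the plus strand. TCF7L2 had 1 match, 133 bases before an annotated start that lies inside the gene, at chr10:113126383-113126682 on the plus strand.
SP5: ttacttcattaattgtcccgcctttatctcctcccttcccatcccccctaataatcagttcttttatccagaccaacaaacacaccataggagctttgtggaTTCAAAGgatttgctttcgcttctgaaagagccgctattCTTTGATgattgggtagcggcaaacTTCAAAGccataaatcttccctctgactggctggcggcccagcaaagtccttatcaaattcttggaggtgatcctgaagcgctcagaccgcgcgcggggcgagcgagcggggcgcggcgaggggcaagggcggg
TCF7L2: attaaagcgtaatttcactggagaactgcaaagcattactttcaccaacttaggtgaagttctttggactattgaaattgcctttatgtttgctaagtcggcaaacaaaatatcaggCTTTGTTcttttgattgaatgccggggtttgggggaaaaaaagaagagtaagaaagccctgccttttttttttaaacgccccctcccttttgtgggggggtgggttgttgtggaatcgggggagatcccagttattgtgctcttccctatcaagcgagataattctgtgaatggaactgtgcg
The E-box letters CACGTG, which read the same on both strands and share no position with the matches shown, were found in 0 of the 9 windows and in 7.26% of all windows. A match of letters is a description of the reference and was not tied to any value measured here.

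WNT5A encodes a ligand that signals mainly through ROR2 and Frizzled receptors (ENSG00000114251.15; chr3:55465715-55490539, minus strand, GRCh38, protein coding). Its level, as counts scaled to library size with edgeR's TMM factors (CPM), was 3.51 and 5.42 in C4-2B control, against 9.91 and 12.6 after MYCL expression. The fitted log2 difference was 1.35 (SE 0.239), given as a description. In NCI-H660 the level was 12.5 and 9.14 CPM with shCtrl and 8.98 and 6.84 CPM with shMYCL. The shMYCL libraries lay just below the shCtrl libraries, and the log2 difference of -0.45 (SE 0.203, 95% confidence interval -0.88 to -0.0213) was not called in edgeR's quasi-likelihood test (Benjamini-Hochberg adjusted p = 0.117). Without shCtrl replicate 2 the difference was -0.66 and would have been called (adjusted p = 0.00722, with a range of 0.00722 to 0.543 over all alternatives in edgeR, DESeq2 and limma). By mean CPM the order was C4-2B MYCL (11.3 ± 1.91, SD, n = 2), NCI-H660 shCtrl (10.8 ± 2.36), NCI-H660 shMYCL (7.91 ± 1.51) and C4-2B control (4.46 ± 1.35). The first 2 of these conditions overlapped, and the next pair differed by a value that was not called.

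WNT11 encodes a non-canonical ligand known from gastrulation movements (ENSG00000085741.15; chr11:76186325-76210736, minus strand). It was counted 56 and 48 times in the shCtrl libraries and 21 and 19 times in the shMYCL libraries of NCI-H660, or 3.13 and 2.45 against 1.31 and 1.15 CPM. The level fell with MYCL knockdown by 1.18 on the log2 scale (SE 0.381, edgeR adjusted p = 0.0332). The call rested on few counts. It was lost without shCtrl replicate 1 (-0.99), without shMYCL replicate 1 (-1.27) and without shMYCL replicate 2 (-1.09), and also in DESeq2, in the fit of all 4 conditions and on the TPM scale, with adjusted p from 0.0112 to 0.298 over the alternatives. In C4-2B it was counted 1 and 0 times in control and 7 and 6 times in MYCL libraries, which was too low for the fitted test. The ratio of MYCL to control was 20.3 with a 95% exact interval of 3.05 to 863 that covers counting error only.

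CCN4, also called WISP1, encodes a secreted matricellular protein that was first described as a Wnt-induced gene (ENSG00000104415.14; chr8:133191039-133231690, plus strand). It was counted 406 and 535 times with shCtrl and 52 and 62 times with shMYCL in NCI-H660. These counts corresponded to 22.7 and 27.3 CPM against 3.24 and 3.75 CPM, and to 8.05 and 10.6 TPM against 1.12 and 1.30 TPM. The log2 difference was -2.84 (SE 0.178), which is the value the gene was chosen for. In C4-2B the counts were 9 and 4 without and 10 and 6 with the MYCL vector, below the filter of the test. The ratio of MYCL to control there was 1.92 with a counting interval of 0.867 to 4.34, so no difference was detectable at this depth.

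Fibroblasts are another common source of WNT5A and CCN4, so stromal markers are given beside them. The summed TPM of 8 fibroblast and stroma markers was between 39.3 and 44.6 in shCtrl and between 26.3 and 27.4 in shMYCL libraries, and between 2.74 and 3.23 in C4-2B control and 3.98 and 4.64 in C4-2B MYCL libraries. The list was lower with shMYCL, as CCN4 was, and higher with MYCL in C4-2B, as WNT5A was. Single genes made most of these sums: mean TPM of COL1A2 was 37.2 with shCtrl and 22.6 with shMYCL, whereas COL1A1 was at 2.63 and 3.08, and in C4-2B the higher sum was that of COL1A1, at 2.715 and 3.998. The part of these genes in the WNT5A and CCN4 values was not tested. COL3A1, DCN and PDGFRB were at 0 in every NCI-H660 library, POSTN in both shCtrl libraries, and COL1A2, DCN, LUM, FAP and POSTN in every C4-2B library. A list of immune markers was between 8.86 and 11.4 TPM in C4-2B control and 24.1 and 26.0 TPM in C4-2B MYCL libraries, with PTPRC, its defining gene, at 0. That sum was nearly all CD68, at a mean of 9.56 and 24.7 TPM, while LYZ was at 0.589 and 0.275 TPM, and its part in the WNT5A value was not tested either. Every library is of a cultured cell line. In bulk RNA, the number of cells that express a gene and its RNA per cell cannot be told apart.

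**Figure D1:**
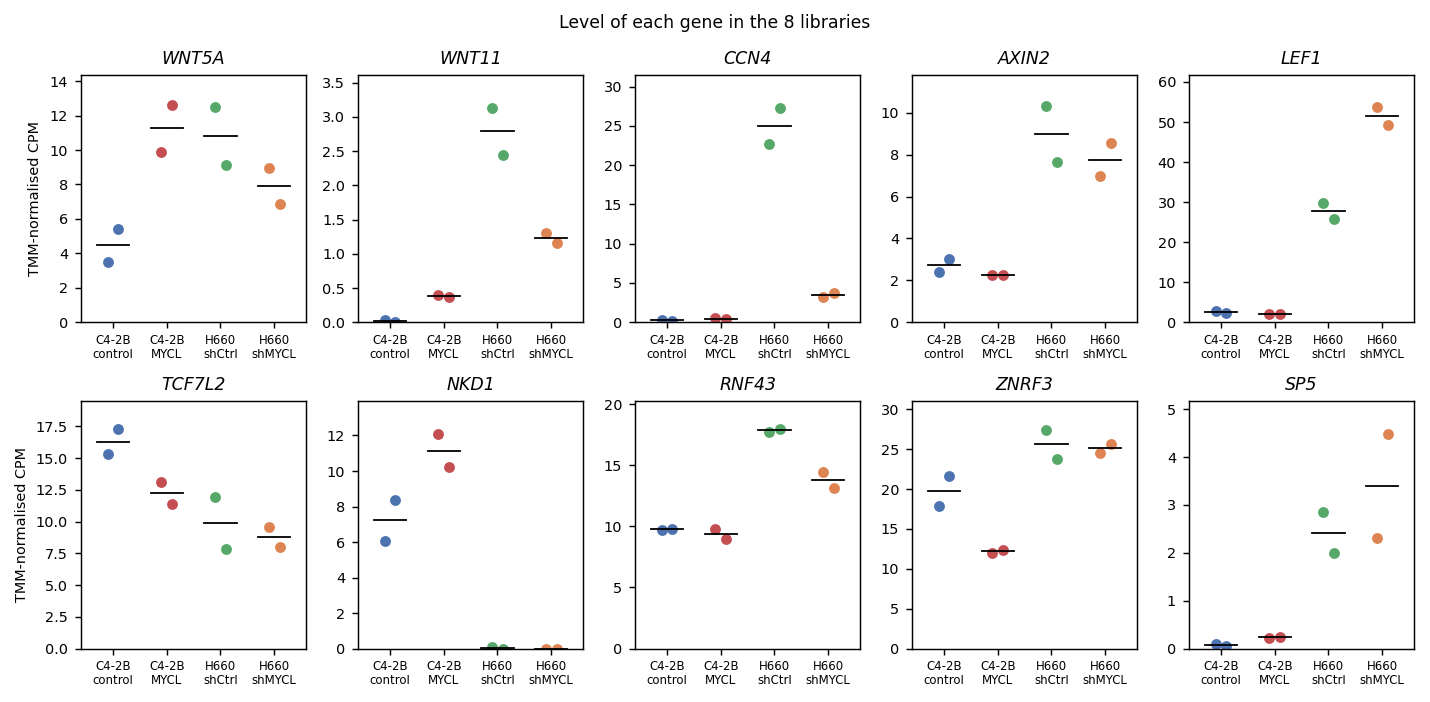
TMM-normalised CPM (vertical axes, linear from 0) of the 10 genes in each of the 8 libraries, as points, with the mean of each condition as a line. CCN4 stood between 22.7 and 27.3 CPM in the shCtrl libraries and at or below 3.75 CPM in all others, whereas LEF1 was highest in the shMYCL libraries.

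LEF1 and TCF7L2 are the TCF/LEF factors among the 10 genes and carry beta-catenin to DNA. LEF1 (ENSG00000138795.11; chr4:108047545-108168956, minus strand) was counted 533 and 506 times with shCtrl and 860 and 815 times with shMYCL. Both shMYCL libraries, at 53.7 and 49.4 CPM, stood above both shCtrl libraries at 29.8 and 25.8 CPM. LEF1 rose with MYCL knockdown by 0.89 on the log2 scale (SE 0.122, edgeR adjusted p = 9.9e-05). The increase was between 0.79 and 0.99 without any 1 library and kept its call each time. It missed the threshold in limma on TPM values without a filter, where the adjusted p was 0.0949 (range over the alternatives 4.51e-10 to 0.0949) and 1 gene in all was called. In C4-2B, LEF1 was far lower, at 2.70 and 2.22 CPM in control and 2.17 and 2.05 CPM in MYCL libraries, and the log2 difference of -0.22 (95% confidence interval -0.906 to 0.467) was not called. An antisense gene, LEF1-AS1, overlaps 5.20% of the LEF1 exons. It was counted 23 and 15 times with shCtrl and 8 and 10 times with shMYCL, so within NCI-H660 it was lower where LEF1 was higher. In C4-2B, where LEF1 was low, it was counted 3 and 2 times in control and 0 and 2 times in MYCL libraries.

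TCF7L2 (ENSG00000148737.19; chr10:112950247-113167678, plus strand) was at 15.3 and 17.3 CPM in C4-2B control and 13.2 and 11.4 CPM in C4-2B MYCL libraries. The log2 difference of -0.40 (SE 0.131, edgeR adjusted p = 0.0421) was past the p threshold but under the minimum fold of 0.5, and was not called. In NCI-H660 its levels of 11.97 and 7.81 CPM with shCtrl enclosed those of 9.61 and 7.99 CPM with shMYCL. The log2 difference there was -0.17 (95% confidence interval -0.612 to 0.275).

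AXIN2, NKD1, RNF43 and ZNRF3 are inhibitors of Wnt signaling that the pathway itself can switch on. AXIN2 (ENSG00000168646.15; chr17:65528563-65561648, minus strand) is a scaffold of the destruction complex. Its level was 2.41 and 3.02 CPM in C4-2B control and 2.28 and 2.23 CPM in C4-2B MYCL libraries, and 10.4 and 7.66 CPM in shCtrl and 6.99 and 8.54 CPM in shMYCL libraries. Neither difference was called, at -0.25 (95% confidence interval -0.937 to 0.429) in C4-2B and -0.21 (-0.644 to 0.217) in NCI-H660. Both intervals include 0.

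NKD1 encodes a protein that binds Dishevelled (ENSG00000140807.7; chr16:50548396-50649249, plus strand). It was at 6.05 and 8.39 CPM in C4-2B control and 12.1 and 10.2 CPM in C4-2B MYCL libraries. NKD1 rose with MYCL by 0.64 on the log2 scale (SE 0.196, edgeR adjusted p = 0.0321). The call was lost without C4-2B control replicate 1 (0.41) or MYCL replicate 1 (0.52), in the fit of all 4 conditions (0.63) and in limma on unfiltered TPM values (0.18), with adjusted p from 0.00631 to 0.512 over the alternatives. In NCI-H660 it was counted 2 and 0 times with shCtrl and 0 and 0 times with shMYCL. At a count of 0, up to 3 counts remain possible, or between 0.153 and 0.187 CPM in the NCI-H660 libraries without a count.

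RNF43 and ZNRF3 are related membrane E3 ligases that remove Frizzled receptors from the cell surface. ZNRF3 (ENSG00000183579.17; chr22:28883572-29057488, plus strand) was at 17.9 and 21.6 CPM in C4-2B control and 12.02 and 12.38 CPM in C4-2B MYCL libraries. ZNRF3 fell with MYCL by 0.68 on the log2 scale (SE 0.128, edgeR adjusted p = 0.0036), and by 0.55 to 0.83 without any 1 library. The call was lost in limma on TPM values without a filter (-0.52) or centred on library medians (-0.37), with adjusted p from 5.04e-06 to 0.17 over the alternatives. In NCI-H660 the shCtrl libraries at 27.5 and 23.8 CPM enclosed both shMYCL libraries at 24.5 and 25.7 CPM, and the log2 difference was -0.032 (95% confidence interval -0.304 to 0.239).

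RNF43 (ENSG00000108375.14; chr17:58353676-58417595, minus strand) was at 9.69 and 9.81 CPM in C4-2B control and 9.80 and 8.94 CPM in C4-2B MYCL libraries, with a log2 difference of -0.051 (95% confidence interval -0.386 to 0.285). In NCI-H660 it was at 17.74 and 17.97 CPM with shCtrl and at 14.4 and 13.1 CPM with shMYCL. The log2 difference of -0.38 (SE 0.142, edgeR adjusted p = 0.0628) was not called. RNF43 shares 68.4% of its exon bases with a second annotated gene on the same strand, ENSG00000285897, so its count is uncertain. That gene was counted 33 and 23 times with shCtrl and 20 and 21 times with shMYCL. In C4-2B it was counted 19 and 4 times in control and 0 and 0 times in MYCL libraries. An antisense gene, TSPOAP1-AS1, overlaps 5.45% of the RNF43 exons. It was counted 23 and 25 times in C4-2B control, 18 and 14 in C4-2B MYCL, 2 and 4 in shCtrl and 3 and 1 in shMYCL libraries. AXIN2 shares 25.3% of its exon bases with ENSG00000266076, which had 0 counts in every library.

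SP5 (ENSG00000204335.4; chr2:170715337-170718078, plus strand), the gene with 3 TCF/LEF matches in its window, was counted 3 and 1 times in C4-2B control and 4 and 4 times in C4-2B MYCL libraries, under the filter of the test. The ratio of MYCL to control was 3.12 with a counting interval of 0.837 to 14.2. In NCI-H660 it was counted 51 and 39 times with shCtrl and 37 and 74 times with shMYCL. The shMYCL libraries stood apart from each other and overlapped the shCtrl libraries, and the log2 difference of 0.49 (95% confidence interval -0.282 to 1.26) was not called. Without shMYCL replicate 2 it was -0.067.

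Among the 10 genes in C4-2B, WNT5A was a description, 3 were under the count filter (WNT11, CCN4 and SP5) and 6 were tested, of which 1 was called higher (NKD1), 1 lower (ZNRF3) and 4 were not called. To be called, a gene needed an adjusted p below 0.05 with a log2 difference of 0.5 or more in size, as 19.9% of the 16866 genes tested had (11.8% higher, 8.12% lower). The median log2 difference of the 6 was -0.24, beside -0.0017 over all genes tested. Of the called genes 59.2% were higher with MYCL on the count scale, against 33.5% in limma on log2(TPM + 1), a scale that shifted the median gene by -0.14. In NCI-H660, CCN4 was a description, NKD1 was under the filter and 8 were tested, of which 1 was called higher (LEF1), 1 lower (WNT11) and 6 were not called. Of the 16980 genes tested there, 16.2% were called (7.18% higher, 8.99% lower). The median of the 8 was -0.19, beside -0.0029 over all genes. AXIN2, LEF1, TCF7L2, RNF43 and ZNRF3 were tested in both lines, and none of them was called in both. The share of all genes called in both lines was not counted, so this has no background beside it. WNT5A, WNT11, NKD1 and SP5 were tested in 1 line only and CCN4 in neither.

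**Figure D2:**
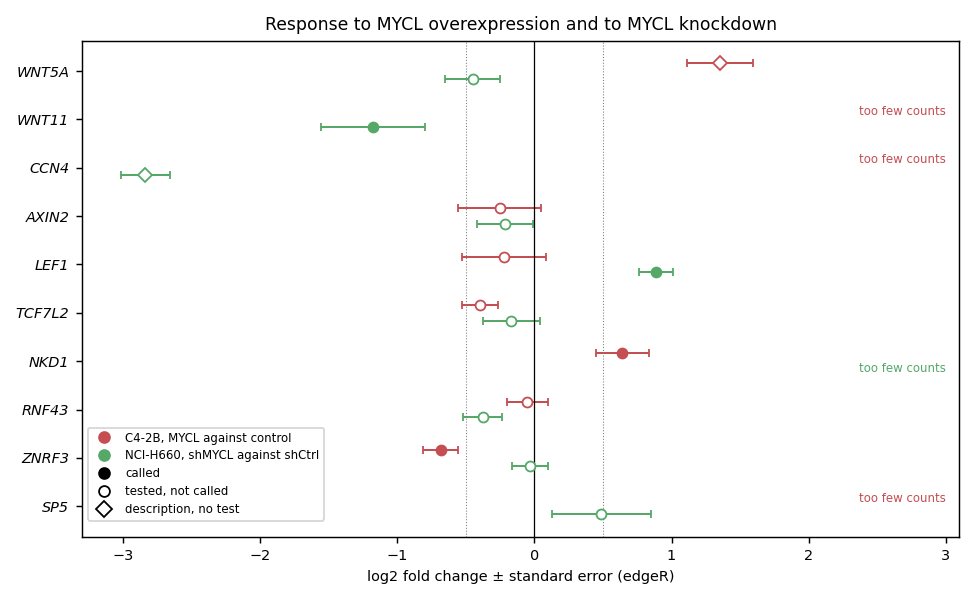
Log2 fold change with its standard error (horizontal axis) for each gene, for MYCL against control in C4-2B (red) and for shMYCL against shCtrl in NCI-H660 (green), with filled points for called genes and diamonds for values given as descriptions. Dotted lines mark the minimum fold of 0.5, and genes under the count filter are written as having too few counts.

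Whether the effect of high against low MYCL differed between the lines was tested in a fit of all 8 libraries. The difference was shCtrl against shMYCL in NCI-H660 minus MYCL against control in C4-2B. On the log2 scale MYCL itself changed by 8.26 with its vector in C4-2B and by -3.06 with shMYCL in NCI-H660. Its own difference was -5.19 (SE 0.206). Line, vector, kind of manipulation and size of the MYCL change therefore cannot be told apart here. ZNRF3 was the 1 gene called among the 8 tested (difference 0.72, SE 0.185, edgeR adjusted p = 0.0153), beside 17.9% of all 19605 genes (8.33% with a positive and 9.59% with a negative difference). It was called lower with high MYCL in C4-2B and was nearly level in NCI-H660. The ZNRF3 call was lost without C4-2B control replicate 2 (0.58), C4-2B MYCL replicate 1 (0.69) or shMYCL replicate 1 (0.70) and in limma on TPM values, with adjusted p from 0.00425 to 0.174. For LEF1 the difference was -0.65 (95% confidence interval -1.18 to -0.125, edgeR adjusted p = 0.0791), so the rise in NCI-H660 was not shown to differ from the value in C4-2B. It passed, at -0.72, in limma on TPM values centred on library medians. The TCF7L2 difference of 0.57 (95% confidence interval -0.0302 to 1.17) passed without shCtrl replicate 2, at 0.86. WNT5A, as a description, had a difference of -0.90 (SE 0.35) and CCN4 of 1.91 (SE 0.554), the latter against C4-2B libraries with at most 10 counts. Of all called genes 46.5% had a positive difference on the count scale and 64.3% in limma on log2(TPM + 1).

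The levels of these genes were also compared between the control conditions of the lines. Of the 8 genes tested between control NCI-H660 and control C4-2B, 5 were higher in NCI-H660, 2 were lower and 1 was not called. Of all genes, 69.8% were called in this contrast (36.5% higher, 33.3% lower). WNT11 and SP5 were under the count filter in the fit of C4-2B alone, and NKD1 in that of NCI-H660 alone. They entered this fit through the line in which they were high, so the filter itself favoured their calls. WNT11 was counted 56 and 48 against 1 and 0 times, a ratio of 148 with a counting interval of 26.0 to 5900. SP5 was counted 51 and 39 against 3 and 1 times, a ratio of 32 (counting interval 12.1 to 120.0). LEF1 was higher in NCI-H660 by 3.48 on the log2 scale (SE 0.151), AXIN2 by 1.74 (SE 0.247) and RNF43 by 0.87 (SE 0.135), with edgeR adjusted p of 1.11e-10, 2.26e-05 and 5.04e-05. The RNF43 call was lost in limma on centred TPM values, at 0.41. NKD1 went the other way, with 186 and 189 counts in C4-2B control against 2 and 0 in shCtrl libraries, a ratio of 132 (counting interval 36.2 to 1090) in favour of C4-2B. TCF7L2 was lower in NCI-H660 (log2 difference -0.72, SE 0.191, edgeR adjusted p = 0.00354), but at -0.13 not in limma on log2(TPM + 1) and at -0.43 not without shCtrl replicate 2. ZNRF3 was not called at 0.38 (SE 0.126), and passed at 0.81 in limma on log2(TPM + 1) and at 0.50 without C4-2B control replicate 2. On that TPM scale the median of all genes was shifted by 0.53, and 71.1% of called genes were higher in NCI-H660, against 52.2% on the count scale. As descriptions, WNT5A was higher in NCI-H660 by 1.29 (SE 0.249) and CCN4 by 6.65 (SE 0.3), with 941 against 13 counts in all. The control libraries are the same ones that served in the comparisons above.

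**Figure D3:**
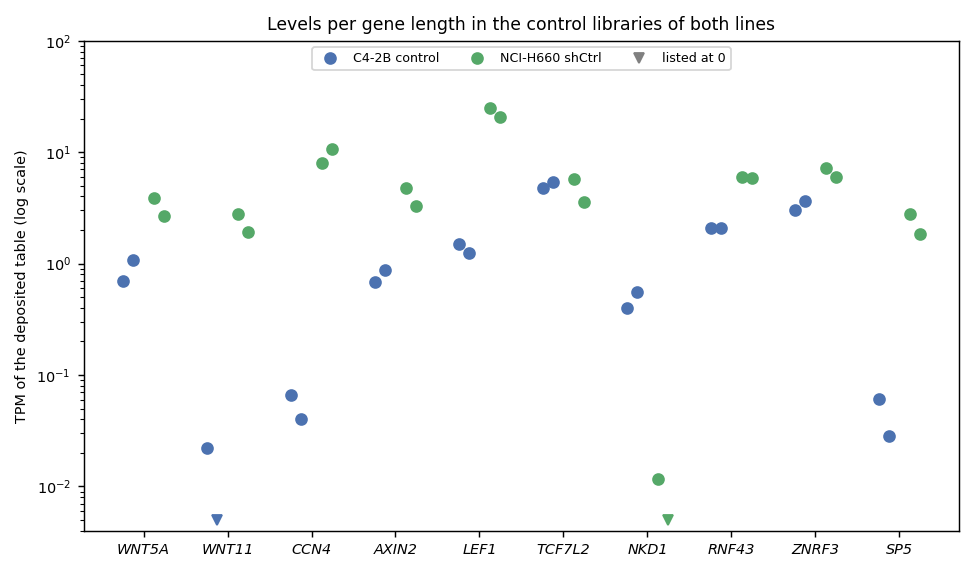
TPM of the 10 genes (vertical axis, log scale) in the 2 C4-2B control and the 2 NCI-H660 shCtrl libraries, with triangles for libraries in which a gene was listed at 0. LEF1 was the highest of them per gene length in NCI-H660, at 24.9 and 20.7 TPM, and TCF7L2 in C4-2B, at 4.75 and 5.38 TPM.

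Per gene length, LEF1 was the most abundant of the 10 genes in NCI-H660 shCtrl libraries, at 24.9 and 20.7 TPM, followed by CCN4 at 8.05 and 10.6 TPM. ZNRF3 at 7.25 and 5.94 TPM, RNF43 at 5.97 and 5.87 TPM and TCF7L2 at 5.71 and 3.54 TPM came next, and ZNRF3 overlapped RNF43. In C4-2B control libraries TCF7L2 led at 4.75 and 5.38 TPM, ahead of ZNRF3 at 3.01 and 3.65 TPM and RNF43 at 2.09 and 2.10 TPM. Of the TCF/LEF factors among the 10 genes, LEF1 was thus above TCF7L2 in NCI-H660 and below it in C4-2B.

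The wider pathway was read from 10 lists with 136 distinct genes, which include the genes above. In C4-2B, 90 of them were tested besides WNT5A, and 14 were called higher and 9 lower with MYCL, beside 11.8% higher and 8.12% lower of all genes tested, with a median log2 difference of 0.038. Non-canonical receptors and planar polarity genes gave 3 higher and 1 lower of 13 tested. The adhesion molecule MCAM, a reported WNT5A receptor, was counted 9 and 11 times in control and 77 and 97 times in MYCL libraries and rose by 3.73 (SE 0.39), whereas ROR2, the receptor most closely tied to WNT5A, was counted 0 and 1 against 15 and 18 times, a ratio of 51.5 with a counting interval of 8.63 to 2100. DAAM2, a formin-type Dishevelled partner, rose by 1.30, and VANGL1, a planar polarity membrane protein, fell by 0.51. Of 11 Frizzled and LRP receptors, FZD2 (1.22) and FZD7 (1.13) rose and FZD5 fell by 0.83. Of 7 secreted and membrane antagonists 3 rose, among them NKD2 by 2.93 (SE 0.418), a relative of NKD1, and DKK3 by 1.02. The ligand WNT9A (1.07) and the Wnt-inactivating enzyme NOTUM (2.13) rose, the latter from 7 and 6 to 15 and 22 counts. MCAM, ROR2 and NOTUM passed the count filter only through the MYCL libraries, in which they were high. The filter itself thus favoured their calls and the number of genes called higher. In the TCF/LEF complex list, TLE2 (1.42) and TCF7L1 (1.34) rose, and BCL9 fell by 0.81, TLE1 by 0.78 and PYGO2 by 0.63, with 10 of 15 not called. PYGO2 is outside the rule for named genes and was added after its value was seen. In the destruction complex and Dishevelled list 1 of 16 was called, AMER1, which fell by 0.61. Of 20 common target genes 4 rose and 3 fell, including JUN (1.97), TCF4 (-1.11) and TNFRSF19 (-1.06). ZNRF3 was the 1 gene called of 4 in the R-spondin and LGR list. In the CCN family list edgeR called 0 of 1, with 1 at an unadjusted p under 0.05.

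Several of these calls rested on single libraries. In leave-one-out fits in edgeR the calls were lost for WNT9A without control replicate 1 (0.92), for NOTUM without control replicate 1 (2.00), control replicate 2 (2.23) or MYCL replicate 2 (1.78), for FZD2 without control replicate 1 (0.79) or MYCL replicate 2 (0.93), and for DAAM2 without control replicate 2 (1.15) or MYCL replicate 2 (0.995). They were also lost for VANGL1 without control replicate 2 (-0.48) or MYCL replicate 1 (-0.47), for TCF4 without control replicate 2 (-0.85), for DKK3 without all libraries but MYCL replicate 2 in turn (between 0.73 and 1.03), and for TCF7L1 without any 1 of the 4 (between 1.11 and 1.54). Those of MCAM, ROR2, NKD2, FZD5, FZD7, TLE1, TLE2, BCL9, AMER1, JUN and TNFRSF19 were kept.

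In NCI-H660, 105 of the 136 genes were tested besides CCN4, and 9 were called higher and 13 lower with shMYCL, beside 7.18% higher and 8.99% lower of all genes tested, with a median log2 difference of -0.032. In the TCF/LEF complex list, LEF1 was joined by TCF7, its close relative, as the 2 called genes of 16. TCF7 was counted 87 and 118 times with shCtrl and 288 and 289 times with shMYCL and rose by 1.70 (SE 0.173). Secreted antagonists that bind Wnt ligands fell, with FRZB at -1.25 (SE 0.152), SFRP1 at -0.96 (SE 0.142) and SFRP5 at -0.93 (SE 0.11), and NKD2 rose by 0.56, which made 3 lower and 1 higher of 9. Among 12 ligands tested, WNT11 and WNT10A (-1.32, SE 0.284) fell and WNT3 (0.85) and WNT7B (0.61) rose. FZD3 (-0.76) and FZD2 (-0.60) fell on the count scale among 11 receptors. On log2(TPM + 1) in limma the FZD3 difference was -0.027 and was not called, with a mean of 32.2 CPM and 4.93 TPM with shCtrl and 19.0 CPM and 4.80 TPM with shMYCL. Among 15 planar polarity genes, VANGL1 (-0.88) and DAAM1 (-0.53) fell and DAAM2 (0.97) rose. NOTUM rose by 1.41 (SE 0.188). Of 20 common target genes 5 rose and 3 fell, with the AP-1 subunit FOSL1 (2.15) and cyclin gene CCND1 (-1.07) at the ends. FOSL1 had 8 counts in all with shCtrl and 32 with shMYCL. It passed the count filter only through the shMYCL libraries, so the filter itself favoured its call. CCN2, a relative of CCN4, was counted 45 and 66 times with shCtrl and 15 and 17 times with shMYCL and fell by 1.58 (SE 0.394), and the other 2 CCN genes tested were not called. In the destruction complex and Dishevelled list edgeR called 0 of 16, with 6 at an unadjusted p under 0.05, and in the R-spondin and LGR list 0 of 6, with 1.

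In leave-one-out fits in edgeR the NCI-H660 calls were lost for WNT7B without shCtrl replicate 1 (0.48), for NKD2 without shCtrl replicate 1 (0.42) or shMYCL replicate 2 (0.39), for FZD2 without shMYCL replicate 1 (-0.55) or 2 (-0.65), for DAAM1 without shCtrl replicate 1 or shMYCL replicate 1, for CCN2 without shCtrl replicate 2 (-1.35), and for FOSL1 without any library but shCtrl replicate 1 (between 1.31 and 2.42). On log2(TPM + 1) in limma the calls of FZD2 (-0.49), DAAM2 (0.65), NKD2 (0.52), FOSL1 (0.91) and CCN2 (-0.88) were lost too. The 4 genes NOTUM, DAAM2, NKD2 and BAMBI were called higher both with MYCL in C4-2B and with shMYCL in NCI-H660, and VANGL1 was called lower in both, although MYCL moved in opposite directions. FZD2 and JUN were called higher with MYCL in C4-2B and lower with shMYCL in NCI-H660. How many of all genes were called in both lines was not counted, so these numbers have no background share beside them. BAMBI, a membrane pseudoreceptor, and the NCI-H660 value of JUN (-0.80) are named here after their values were seen.

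**Figure D4:**
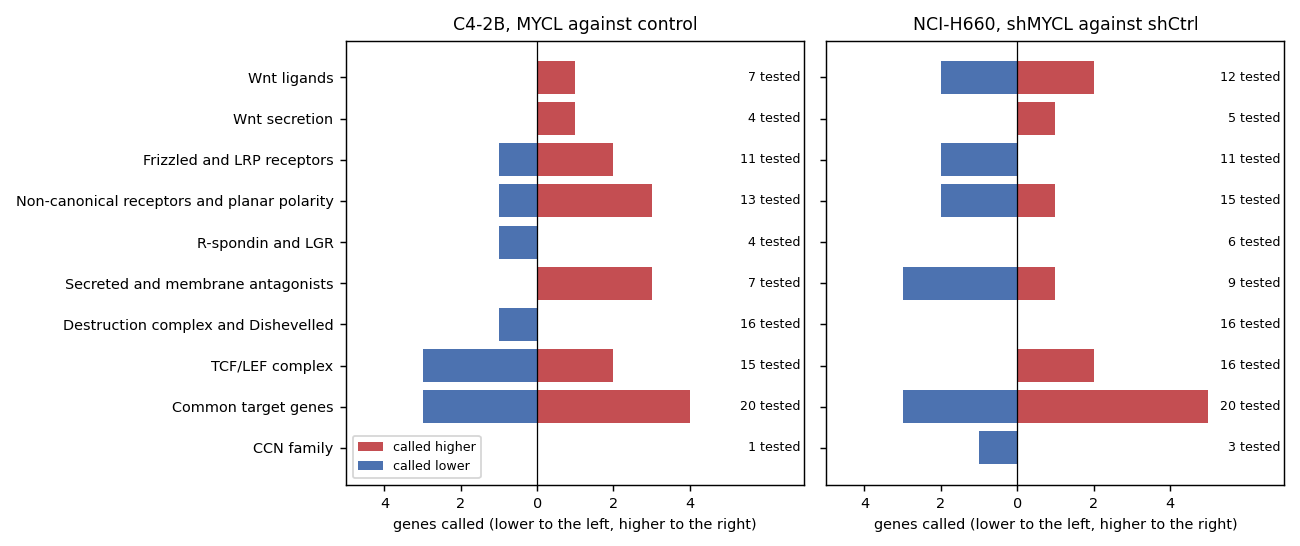
Number of genes called higher (red, to the right) and lower (blue, to the left) in each of the 10 pathway lists, for MYCL against control in C4-2B and for shMYCL against shCtrl in NCI-H660, with the number tested at the right of each row. Genes on several lists are counted in each, and the secreted and membrane antagonists had 3 genes called higher in C4-2B, and 3 other genes called lower and NKD2 called higher in NCI-H660.

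Between the control conditions, 55 of the 109 pathway genes tested were higher and 25 lower in NCI-H660. The contrast called 36.5% of all genes higher and 33.3% lower. The share called in either direction was thus near that of all genes, but more of the calls were higher ones. The median log2 difference was 0.547, beside 0.0334 over all genes. Of the lists, 90 genes besides WNT5A passed the filter in C4-2B alone and 105 besides CCN4 in NCI-H660 alone. Over all genes these numbers were 16866 and 16980. More list genes thus entered through NCI-H660, where they were high, so the filter itself favoured higher calls and a higher median. The cargo receptor WLS, which most Wnt ligands need to reach the cell surface, was counted 1942 and 2505 times in shCtrl and 4 and 4 times in C4-2B control libraries, or 80.9 and 104 TPM against 0.162 and 0.383 TPM. It was at 2 and 0 counts in the C4-2B MYCL libraries, in which WNT5A was higher. CTNNB1, which encodes beta-catenin, was at 459 and 438 TPM in shCtrl against 116 and 121 TPM in C4-2B control libraries. On the count scale the gap was smaller, with means of 839.5 and 345.4 CPM and a ratio of 2.44. SFRP5 and VANGL2 had no count in the C4-2B control libraries, and were at least 945-fold and at least 322-fold higher in shCtrl libraries when 3 counts per library were taken as the floor. ROR2 was counted 126 and 166 times in shCtrl libraries against 0 and 1, and ROR1, the other WNT5A receptor of this family, was lower in NCI-H660, with a log2 difference of -4.41.

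Genes whose levels followed WNT5A or CCN4 most closely were sought over the 4 condition means of log2(CPM + 1), each gene centred on its own mean, among 19604 genes. For WNT5A the nearest was PTGES, with a root mean square difference of 0.0401, followed by RIT1 (0.0819), UBALD2 (0.0852), CLSTN3 (0.10) and LINC02609 (0.11). For CCN4 the nearest were SMIM34 (0.20), CLDN11 (0.28), PKHD1L1 (0.31), a row named DHRSX (0.34) and SLC34A2 (0.36). With 4 points and so many genes, such likeness is a description and says nothing of a shared function.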

How the data were processed

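RNA was extracted with TRIzol, and poly(A) libraries were sequenced as paired ends on an Illumina instrument. The authors deposited a table of estimated counts per gene and a TPM table, for hg38 per the labels, while the aligner and counter, and whether strand was used, are not given in the sources used here. The paper describes the TPM values that the authors deposited as counts scaled by Ensembl gene length and by library. One fixed length per gene does not give them, since TPM per CPM in shMYCL replicate 1, relative to shCtrl replicate 1, ran from 0.928 to 1.68 over 58 genes of the lists with at least 100 counts in every library, so TPM and count differences can part. The table holds the first 65535 of 78691 genes, with all 10 members among them. Of the nonzero estimated counts, 22.4% were not whole (tolerance 0.01), and all were rounded. The study's own analysis used DESeq2 in each line.

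From the deposited counts, edgeR 4.0.16 (R 4.3.3) was used with TMM factors, filterByExpr and the quasi-likelihood test, for each line alone (2 against 2 libraries) and for all 8 libraries for the difference between lines and for the control conditions. A call needed a Benjamini-Hochberg adjusted p under 0.05 over all genes tested and an absolute log2 difference of at least 0.5. An exact permutation test of 2 against 2 libraries cannot go below 0.33, so none was used for single values. Alternatives were DESeq2 1.42.0, limma 3.58.1 on log2(TPM + 1) for genes at a TPM of at least 1, on log2(TPM + 0.1), without a filter and centred on library medians, other count filters and minimum folds, a replicate block, and leaving out each library. The fits were tried on simulated data with changes of a single size, well above the minimum fold, planted in genes with enough counts. That trial does not cover smaller changes or genes with very few counts.

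The 10 genes, the pathway lists and the marker lists were chosen with earlier results of these data known. Besides the 10 genes and MYCL, up to 4 called genes of each list with the largest log2 difference in each comparison were named, with the 5 genes most alike to WNT5A and to CCN4. Exact binomial intervals and the floor of 3 counts per library cover counting error only. The labels call the C4-2B control libraries biological replicates and the others replicates, and do not say whether they were separate cultures, so p-values measure the spread between these samples. Same-numbered libraries did not deviate together. Positions are from GENCODE 44 (GRCh38), in which 61458 of the 78691 gene identifiers were found. Figures were drawn with matplotlib 3.10.9.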

Additional observations from a re-analysis of the deposited data

Results flagged for a closer look

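Between the lines, the response to MYCL level differed past the threshold for ZNRF3 and for 22 other pathway genes named by the rule. Line, vector, kind of manipulation and size of the log2 MYCL change (8.26 in C4-2B, -3.06 in NCI-H660) cannot be told apart in these differences. In all 33 of 109 pathway genes tested passed, 12 with a positive and 21 with a negative difference. Beside them, 17.9% of all 19605 genes passed (8.33% positive, 9.59% negative). WNT5B, VANGL2 and LGR6, among those with a negative difference, were under the count filter in the fit of C4-2B alone. They entered this fit through NCI-H660, where they were high. Each value is shCtrl minus shMYCL in NCI-H660 less MYCL minus control in C4-2B, on the log2 scale, from edgeR's quasi-likelihood test over all genes. ZNRF3, which removes Frizzled receptors, differed by 0.72, and lost the call without C4-2B control 2 (0.58), C4-2B MYCL 1 (0.69) or shMYCL 1 (0.70).

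Among the ligands WNT3 differed by -1.29, WNT9A by -0.95, WNT10A by 2.07 and WNT5B by -5.22. Among the receptors FZD3 differed by 1.19, FZD5 by 0.94, ROR2 by -4.85 and MCAM by -3.56. Among the planar polarity genes VANGL2 differed by -5.33 and DAAM2 by -2.27, and LGR6, a receptor for R-spondins, by -4.21. WNT5B, VANGL2, LGR6 and ROR2 had at most 1 count in each C4-2B control library, so their fitted values depend on the prior count. In limma on log2(TPM + 1) VANGL2 turned to 0.24 and the calls were lost for ROR2 (-0.063), WNT5B (-0.079), LGR6 (-0.22), WNT9A (-0.31), FZD3 (0.55) and ZNRF3 (0.54).

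Among the inhibitors NOTUM differed by -3.54, NKD2 by -3.50 and TPBG by -1.62. In the destruction complex and Dishevelled list AMER1 differed by 1.104 and DVL1 by -0.57. Among the TCF/LEF partners TCF7 differed by -1.40, TLE1 by 1.08, TLE2 by -1.75 and CTNNBIP1 by -0.67. The calls of TPBG (-0.45), DVL1 (-0.44) and CTNNBIP1 (-0.32) were lost in limma on log2(TPM + 1). Among the target genes CCND1 differed by 1.57 and BAMBI by -1.41. NOTUM, DAAM2, NKD2 and BAMBI were called higher in both lines although MYCL moved in opposite directions. The C4-2B calls of NOTUM and DAAM2 and the NCI-H660 call of NKD2 were lost without single libraries. The number of all genes called in both lines was not counted.

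The call was lost without 1 library for WNT3 (C4-2B control 1 or C4-2B MYCL 1, from -1.57 to -1.03 over all libraries left out), WNT5B (C4-2B control 1 or 2, C4-2B MYCL 2 or shMYCL 2, from -5.61 to -4.82), DVL1 (C4-2B control 2 or shMYCL 2, from -0.66 to -0.45), TCF7 (C4-2B MYCL 1, at -1.30), CTNNBIP1 (C4-2B control 1 or shCtrl 1, from -0.86 to -0.49) and TPBG (C4-2B control 1). For WNT9A it was kept only without C4-2B control 2 or shCtrl 2, with values from -1.14 to -0.77.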

How the results depend on the processing

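With 2 libraries a group, low counts and the choice of scale limit these results. Of the alternative values for the 10 genes, 403 kept their direction and their side of the threshold, 28 lost the call, 7 gained it and 12 changed sign. Leaving out 1 library gave 1 to 2 of the 10 genes called in C4-2B, 1 to 3 in NCI-H660, 0 to 2 between the lines and 6 to 8 between the control conditions. The cause was not tested for any change listed here, other than those that follow from a fold minimum or a stricter filter.

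Main counts of the 10 genes called were 2 in C4-2B, 2 in NCI-H660, 1 between the lines and 7 between the control conditions. In C4-2B they were 1 in limma on log2(TPM + 1), 1 with a pseudocount of 0.1, 0 without a filter (3 at an unadjusted p under 0.05), 0 on centred values (1 at an unadjusted p under 0.05) and 0 with a minimum log2 difference of 1. In NCI-H660 they were 1 in DESeq2, 1 in limma on log2(TPM + 1), 1 with a pseudocount of 0.1, 0 without a filter (1 at an unadjusted p under 0.05), 1 on centred values, 1 with a minimum of 1 and 1 in the fit of all 4 conditions. Between the lines they were 0 in limma on log2(TPM + 1), with a pseudocount of 0.1 and without a filter (3, 2 and 3 at an unadjusted p under 0.05) and 0 with a minimum of 1. Between the control conditions a minimum of 10 counts gave 4.

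Over all genes, C4-2B calls numbered 3355, and 1940 on TPM without a filter, 5895 with no minimum fold and 1411 with a minimum of 1. NCI-H660 calls numbered 2745, and 1702 on log2(TPM + 1), 1600 with a pseudocount of 0.1, 1 without a filter, 1692 centred, 4204 with no minimum fold and 1022 with a minimum of 1. Between the lines 3513 became 1898 on TPM without a filter and 1666 with a minimum of 1, and between the control conditions 13687 became 8512 with a minimum of 10 counts. Pathway genes called in C4-2B numbered 23, and 12 on TPM without a filter, 11 centred, 41 with no minimum fold and 14 with a minimum of 1. In NCI-H660 they numbered 22, and in limma 0 without a filter (29 at an unadjusted p under 0.05) and 8 with a minimum of 1 in edgeR. Between the lines 33 became 16 without a filter, and between the control conditions 80 became 51 with a minimum of 10 counts. MYCL in NCI-H660 was -2.90 and not called on TPM without a filter.

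Signs changed for RNF43 in C4-2B on centred TPM (0.0344), and between the lines on log2(TPM + 1), without a filter or centred for WNT11 (0.39, 0.39 and 0.297 in this order) and VANGL2 (0.24, 0.24 and 0.148), and for NKD1 without a filter (-0.171). Leaving out 1 library gave ranges that crossed 0 for RNF43 in C4-2B (-0.113 to 0.0153, the sign turning without MYCL 2), for AXIN2 (-0.414 to 0.0194, without shCtrl 1), TCF7L2 (-0.445 to 0.171, without shCtrl 1), ZNRF3 (-0.13 to 0.0764, without shCtrl 1 and, at 0.00983, without shMYCL 1) and SP5 (-0.0666 to 0.896, without shMYCL 2) in NCI-H660, and for NKD1 between the lines (-0.625 to 3.6, without shCtrl 1).

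With the replicate number as a block, 3536 genes were called in C4-2B, 2949 in NCI-H660, 3576 between the lines and 13727 between the control conditions, with 2, 2, 1 and 7 of the 10 genes, and it changed no call among 123 single-gene results. Deviations of same-numbered libraries correlated between -0.0154 and 0.0527, so the numbers were not taken as pairs.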
